A study of Mus musculus with 6 samples.

Results

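The Hippo pathway and its YAP/TEAD targets were followed through 10 genes, chosen by name with earlier results of these data known: Yap1, Wwtr1, Tead1, Tead2, Vgll3, Lats1, Lats2, Amotl2, Ctgf and Cyr61. All 10 were among the 12151 genes of the deposited expression table. Expression was measured by RNA sequencing of mouse glioma cells in culture, with 3 libraries in each of 2 groups. GL261 is a serum-grown glioma line, labelled as differentiated glioma cells and kept in DMEM with fetal bovine serum; its libraries came from passages 17, 33 and 34, although the passage field of the last says 33. The mNS cells are labelled as neurosphere glioma stem-like cells and were kept in DMEM/F12 with B-27, basic FGF, EGF and heparin; their libraries came from passages 72, 77 and 85. Both media held penicillin, streptomycin, hepes, glutamine and β-mercaptoethanol. The origin of the mNS cells and the number of separate cultures are not given in the labels. The p-values therefore reflect only how these libraries vary, which may be passage, technical spread or both. Cell line, medium, growth form and passage range all differ between the groups and cannot be told apart.

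In the Hippo pathway the kinases encoded by Stk3 and Stk4, with the scaffold Sav1, activate the kinases encoded by Lats1 and Lats2, which act with Mob1a or Mob1b. LATS kinases phosphorylate the transcriptional coactivators YAP (Yap1) and TAZ (Wwtr1), which are then held in the cytoplasm or degraded. Unphosphorylated YAP and TAZ enter the nucleus and bind DNA through TEAD factors, whose partners also include the Vgll proteins. Ctgf and Cyr61, which encode secreted matricellular proteins, are classical targets, and Lats2 and Amotl2 are targets that also restrain YAP. Contact with a stiff substrate and lipids present in serum are known to raise YAP activity, which is set largely at the protein level. The RNA levels given here do not measure phosphorylation or location of the proteins.

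TEAD factors bind the core CATTCC, and its place in the promoters of these genes is shown because the members include both the factors and their targets. RefSeq's promoter table (GRCm38.p6) held a start for 8 of the 10 members; Ctgf and Tead1 were not matched. The motif CATTCC, searched on both strands in the 250 bases before the start, was found for 5 of these 8 genes, Yap1, Wwtr1, Vgll3, Amotl2 and Cyr61, and not for Tead2, Lats1 or Lats2. The same search found it for 14.4% of 27025 genes in the promoter table, and for 12.6% of the 9004 that are also in the expression table. The AP-1 motif TGANTCA and the CArG box were found in no window of these 8 genes. Their shares were 7.82% and 1.62% of all genes, and 5.39% and 1.4% of those in the expression table. At shares this low, no match among 8 genes is not a contrast. A match is a description of the letters only. The 30 bases around each match, all written on the strand that reads CATTCC, with the motif in capitals, are as follows.
Yap1, chr9:8004720-8004749, plus strand (gene on the minus strand): tgcgcgtcgctaCATTCCtgcagactcccg
Wwtr1, chr3:57576029-57576058, plus strand (gene on the minus strand): agcgcctatctgCATTCCtttgagtttacc
Vgll3, chr16:65815114-65815143, plus strand: cccgcctccccaCATTCCggctaccctgcc
Amotl2, chr9:102717727-102717756, plus strand: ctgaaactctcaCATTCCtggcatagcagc
Cyr61, chr3:145650071-145650100, minus strand: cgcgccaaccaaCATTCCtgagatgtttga

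The motif began 103 bases before the RefSeq start in Cyr61 and 63 bases before it in Vgll3, and these windows are shown whole because of the 10 members Cyr61 had the highest GL261 level per kb of exon (119 CPM per kb) and Vgll3 the largest difference between the groups. The RefSeq start of Vgll3 (65815189) lies before the GENCODE start of the gene. Those of Amotl2 (102717804) and Tead2, a start of Wwtr1 (57575876) and both starts of Lats2 lie inside the gene. The absence of the motif for Lats2 and Tead2 therefore refers to these inner starts only.
Cyr61, chr3:145649986-145650235, minus strand: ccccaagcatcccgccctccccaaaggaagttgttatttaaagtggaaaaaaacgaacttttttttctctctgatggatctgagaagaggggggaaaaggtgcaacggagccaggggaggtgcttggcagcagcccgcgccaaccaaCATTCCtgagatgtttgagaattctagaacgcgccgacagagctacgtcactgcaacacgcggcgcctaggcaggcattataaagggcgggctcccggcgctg
Vgll3, chr16:65814939-65815188, plus strand: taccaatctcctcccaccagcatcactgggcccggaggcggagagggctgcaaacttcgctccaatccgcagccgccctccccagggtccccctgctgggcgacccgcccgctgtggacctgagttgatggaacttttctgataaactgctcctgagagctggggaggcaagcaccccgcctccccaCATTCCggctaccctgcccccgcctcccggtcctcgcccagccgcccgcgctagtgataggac

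Values are in CPM, reads relative to library size, scaled by the authors with TMM factors. Each library held between 12534422 and 14225175 reads in the listed genes, so that 1 read was worth between 0.0708 and 0.0773 CPM. No pair of libraries within a group agreed within counting noise (chi-square per degree of freedom of at least 3.12), and all 6 were kept. The earliest passage stood furthest apart: GL261 at passage 17 gave 14.9 and 16.7 against the other two, which gave 3.74 between them, and mNS at passage 72 gave 8.52 and 15.7, against 3.12. Neural progenitor markers fixed for the check (Nes, Sox2, Olig2, Fabp7 and Pdgfra) were all listed, with a summed level of 1726 to 1961 CPM in GL261 and 1818 to 2119 CPM in mNS. These similar sums hide differences in both directions. Olig2 was at 8.54 ± 2.97 CPM in GL261 and 437 ± 22.8 in mNS, Fabp7 at 3.24 ± 2.06 and 89.8 ± 5.88, and Pdgfra at 111 ± 9.85 and 267 ± 64.4. Nes, the most abundant, was lower in mNS (1518 ± 175 and 955 ± 236 CPM). Sox2 was not called (difference 0.05, limma adjusted p = 0.778). Of the markers of other cells, 2 of 8 immune genes were listed (summed level 4.05 to 5.44 CPM in GL261 and 6.87 to 9.51 CPM in mNS), 1 of 6 endothelial genes and 4 of 8 fibroblast and pericyte genes. In such bulk RNA, fewer cells of a type and less RNA per cell cannot be told apart.

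The members were lower in the neurospheres nearly throughout. Calls rest on limma's adjusted p, with a threshold of 0.05 over all 12006 genes tested; 64.3% of these genes were called, 32.1% lower and 32.2% higher in mNS. Of the 10 members 9 were called lower, none was called higher, and Tead2 was not called. Tead2 alone was higher in mNS at an unadjusted p under 0.05 in limma, and no member was called higher by edgeR or DESeq2. A called fall of at least 1 in log2(CPM + 1) was found for 6 members, Vgll3, Ctgf, Cyr61, Lats2, Amotl2 and Tead1, against 8.47% of all genes. For 9 of the 10 members every mNS value lay on the same side of every GL261 value, against 69.9% of all genes. The median difference was -1.69 over the members and -0.0027 over all genes tested. Because the members were chosen with earlier results of these data known, these contrasts with all genes are a description only.

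**Figure D1:**
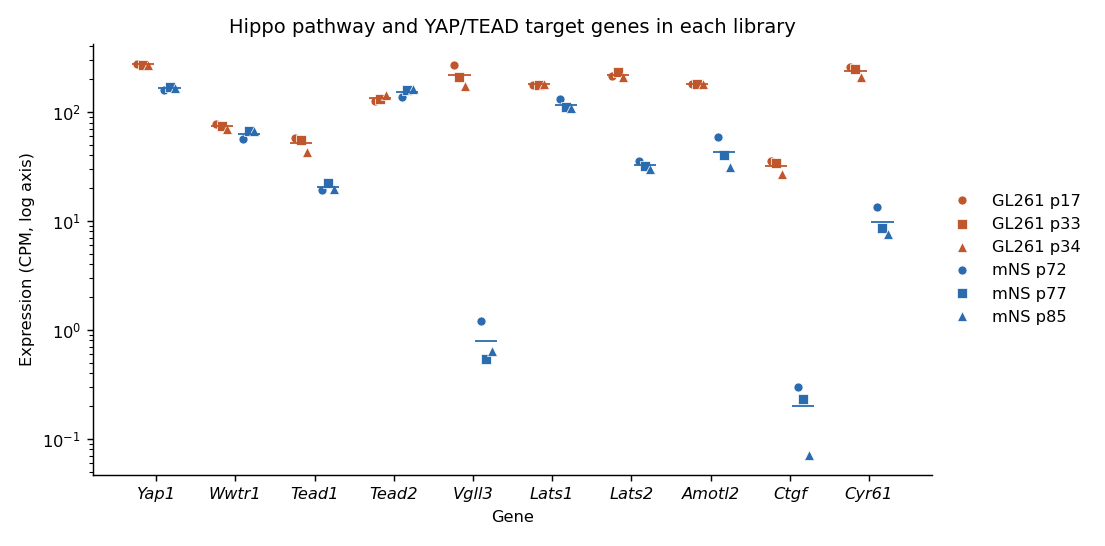
Expression of each member in CPM (log axis) in the 3 GL261 libraries (orange) and the 3 mNS libraries (blue), with the symbol giving the passage and the line the group mean. The group means of Vgll3 lie 273-fold apart and those of Ctgf 160-fold, the latter on 8 mNS reads, whereas the Tead2 values overlap.

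Of the coactivators, Yap1 fell and Wwtr1 stood slightly lower. Yap1 (chromosome 9, 7931999 to 8004596, minus strand, GRCm38) stood at 278, 269 and 272 CPM in GL261 and at 160, 168 and 167 CPM in mNS. The libraries of a group lay close together and the groups far apart, with a coefficient of variation of 1.81% in GL261 and 2.68% in mNS. The mNS mean was 60.4% of the GL261 mean, a difference of -0.72 ± 0.05 in log2(CPM + 1) (SE; limma adjusted p = 6.32e-06). Wwtr1 (chromosome 3, 57455649 to 57575910, minus strand) stood at 78.0, 74.7 and 70.1 CPM in GL261 and at 56.1, 66.7 and 67.0 CPM in mNS. Its groups did not overlap, but the lowest GL261 and the highest mNS libraries were close. The difference was -0.23 ± 0.09 (limma adjusted p = 0.0466). This call did not hold in edgeR (adjusted p = 0.0513) or DESeq2 (0.0649), nor when any of GL261 replicates 1 to 3 or mNS replicates 1 or 2 was left out, where the adjusted p lay between 0.052 and 0.117. With all columns brought to 1 sum the difference was -0.14 (adjusted p = 0.189), and the call was also lost with quantile normalisation (0.0879) and with eBayes without a trend (0.0702).

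Per kb of exon, Yap1 was the higher of the coactivator transcripts in every library. Its level was 1.90 ± 0.0887 times that of Wwtr1 in GL261 and 1.35 ± 0.103 times in mNS (SD, n = 3 each). The ratios of the groups did not overlap (exact permutation test, two-sided, p = 0.1, the smallest that 3 against 3 libraries allow; adjusted p = 0.12 over the 12 such ratios, shares and sums tested). The summed level of both genes was 45.0 ± 1.22 CPM per kb in GL261 and 31.1 ± 1.78 in mNS (SD, n = 3 each).

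The TEAD genes, which encode the DNA-binding partners of YAP and TAZ, went different ways. Tead1 (chromosome 7, 112679318 to 112906807, plus strand) stood at 58.1, 55.5 and 43.1 CPM in GL261 and at 19.1, 22.3 and 19.5 CPM in mNS. All mNS libraries lay below all GL261 libraries, a difference of -1.31 ± 0.13 (limma adjusted p = 2.90e-05). Tead2 (chromosome 7, 45215753 to 45233644, plus strand), on the same chromosome, stood at 127, 132 and 143 CPM in GL261 and at 138, 159 and 162 CPM in mNS. The mNS value at passage 72 lay inside the GL261 range, and the difference of 0.19 ± 0.08 was not called (limma adjusted p = 0.0679). It was called without that library, mNS replicate 1 (difference 0.26, adjusted p = 0.0133), and with all columns brought to 1 sum (0.28, 0.0147), quantile normalisation (0.27, 0.0204) or array weights (0.24, 0.000685). The other genes of the family also split: Tead4 fell from 15.6 ± 1.76 to 1.06 ± 0.794 CPM (difference -3.09, adjusted p = 2.57e-05), and Tead3, the lowest of the 4 per kb of exon in GL261, rose from 2.04 ± 0.116 to 5.43 ± 1.63 CPM (difference 1.05, adjusted p = 0.00175). The mNS level of Tead4 rests on 43 reads, 2 of them at passage 72.

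The makeup of the TEAD transcripts differed between the groups, while their summed levels per kb of exon overlapped. Per kb of exon, the 4 TEAD genes summed to 34.9, 36.1 and 38.1 CPM in GL261 and to 30.7, 36.1 and 36.6 CPM in mNS, and these values overlapped (exact permutation p = 0.5). Tead2 made up 75.8%, 76.1% and 78.1% of that sum in GL261 and 93.5%, 91.9% and 92.1% in mNS. Tead1 made up 10.6% ± 2.05 in GL261 and 4.35% ± 0.379 in mNS, and Tead4 11.9% ± 0.809 and 0.815% ± 0.593. For each of these genes the shares lay apart between the groups (exact permutation p = 0.1 each, adjusted p = 0.12). Shares within a library do not depend on the scaling between libraries. Both the shares and the sums depend on the exon lengths used, the union of annotated exons (13570 bases for Tead1 and 4788 for Tead2). Without division by length, the summed CPM of the TEAD genes was lower in every mNS library than in every GL261 library.

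**Figure D2:**
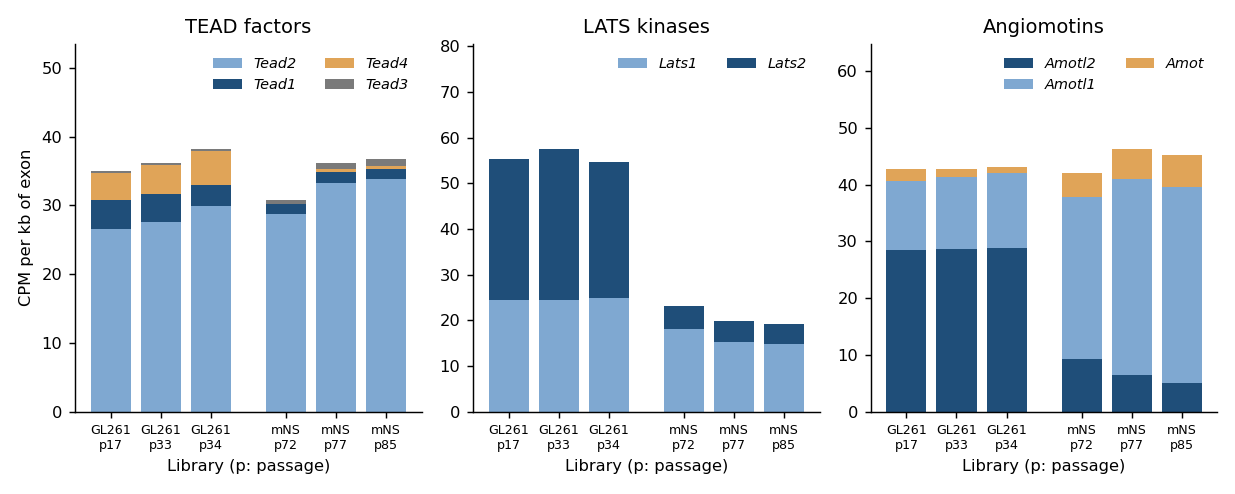
Stacked levels (CPM per kb of exon, axis from 0) of the TEAD, LATS and angiomotin genes in each library, labelled by group and passage. On this scale the TEAD and angiomotin stacks have similar heights in both groups with different makeup, a likeness that depends on the exon lengths used. The LATS stacks are lower in mNS.

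Vgll3, a cofactor that competes with YAP and TAZ for TEAD, had the largest difference of the 10 genes. It stood at 271, 208 and 173 CPM in GL261 and at 1.21, 0.541 and 0.637 CPM in mNS (chromosome 16, 65815257 to 65866368, plus strand). The transcript was abundant in every GL261 library and close to absent in every mNS library, with 8819 reads in GL261 and 32 in mNS in all. The ratio of group means was 273, with an exact 95% binomial (Clopper-Pearson) interval of 193 to 400 that covers counting error only, and the difference of -6.92 ± 0.19 (limma adjusted p = 3.10e-08) was rank 11 from the lowest of 12006 genes. Its relative Vgll4, which restrains YAP by the same contact with TEAD, averaged 43.6 ± 2.95 CPM in GL261 and, in mNS, 53.0 ± 7.52 CPM, without a call (difference 0.27, adjusted p = 0.0593); it was called by DESeq2 (adjusted p = 0.0494), with all columns brought to 1 sum (0.019), with array weights (0.0031) and without mNS replicate 3 (0.0159). Vgll1 and Vgll2 were not listed.

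The LATS kinase genes both fell, by unequal amounts. Lats1 (chromosome 10, 7681214 to 7716460, plus strand) stood at 178, 178 and 181 CPM in GL261 and at 132, 111 and 108 CPM in mNS, a difference of -0.62 ± 0.08 (limma adjusted p = 2.04e-04). Lats2 (chromosome 14, 57689662 to 57758388, minus strand) stood at 215, 231 and 209 CPM in GL261 and at 35.3, 31.8 and 30.0 CPM in mNS. For either gene all mNS libraries lay below all GL261 libraries. The mean of Lats2 in mNS was 14.8% of that in GL261, a difference of -2.72 ± 0.08 (adjusted p = 3.59e-08). Per kb of exon, Lats2 was at 1.27, 1.35 and 1.21 times the level of Lats1 in GL261 and at 0.280, 0.299 and 0.291 times in mNS, so that the order of the 2 transcripts was opposite in the groups (exact permutation p = 0.1, adjusted p = 0.12). Their sum was 55.9 ± 1.43 CPM per kb in GL261 and 20.7 ± 2.17 in mNS. In GENCODE M21, Lats2 shares 2955 exonic bases with the gene model Gm49361 on the same strand, and the sources used here do not say how such reads were counted.

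Amotl2 encodes an angiomotin, a junction protein that binds YAP and helps LATS act on it. Amotl2 (chromosome 9, 102716672 to 102733418, plus strand) stood at 179, 180 and 181 CPM in GL261 and at 58.4, 40.4 and 31.3 CPM in mNS. The GL261 libraries were nearly equal (coefficient of variation 0.547%) while the mNS libraries differed among themselves (31.8%), and all of them lay far below GL261 (difference -2.08 ± 0.18, limma adjusted p = 1.86e-05). The other angiomotin genes went the other way: Amot rose from 12.8 ± 3.86 to 43.1 ± 6.35 CPM (difference 1.70, adjusted p = 8.61e-05), and Amotl1, named after its values were seen, rose from 128 ± 4.89 to 327 ± 34.6 CPM (1.34, adjusted p = 2.10e-06). Per kb of exon, the 3 genes summed to 42.7, 42.8 and 43.1 CPM in GL261 and to 42.1, 46.3 and 45.3 CPM in mNS, which overlapped (exact permutation p = 0.4, adjusted p = 0.436). This overlap depends on the exon lengths used (6289 bases for Amotl2, 10064 for Amotl1 and 8402 for Amot). Without division by length, their summed CPM was higher in every mNS library than in every GL261 library.

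Among the members the matricellular targets had the largest falls after Vgll3. Ctgf, now also called Ccn2 (chromosome 10, 24595442 to 24598683, plus strand), stood at 35.7, 34.3 and 26.7 CPM in GL261 and at 0.302, 0.232 and 0.0708 CPM in mNS. The mNS values amount to 8 reads over 3 libraries, against 1307 in GL261. The ratio of group means was 160 (162 from the reads corrected for depth, with a counting interval of 82.0 to 376), and the difference was -4.78 ± 0.15 (limma adjusted p = 5.31e-08; rank 55 from the lowest). Cyr61, now also called Ccn1 (chromosome 3, 145646976 to 145649981, minus strand), stood at 261, 248 and 211 CPM in GL261 and at 13.4, 8.66 and 7.51 CPM in mNS. Here too no mNS library came near GL261, but the transcript remained measurable, with 396 reads in mNS. The difference was -4.50 ± 0.18 (adjusted p = 1.78e-07; rank 67). Per kb of exon, Cyr61 was at 10.4, 10.2 and 11.2 times the level of Ctgf in GL261 and at 63.1, 52.9 and 150 times in mNS, the latter resting on 4 or fewer reads of Ctgf a library. The other members of this CCN family (Nov, Wisp1, Wisp2 and Wisp3) were not listed.

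**Figure D3:**
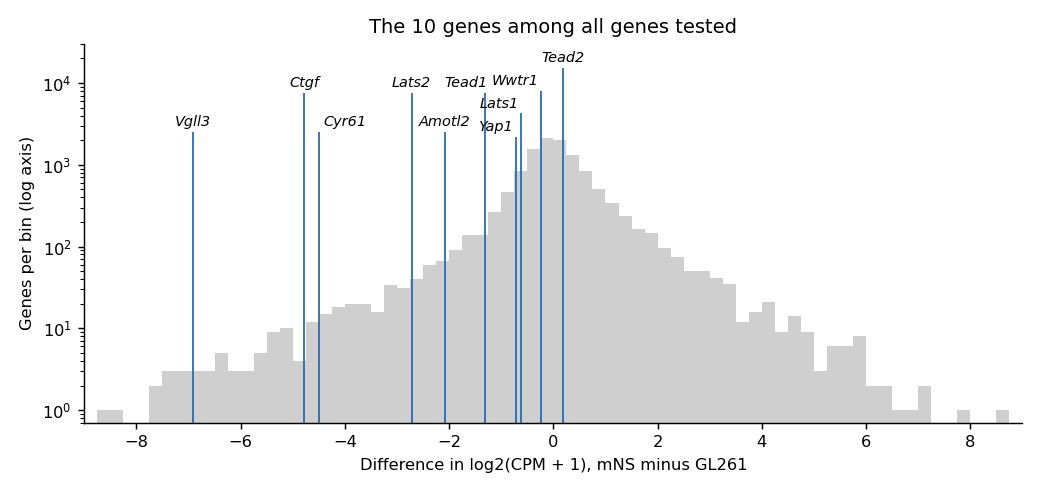
Number of genes per bin of the difference in log2(CPM + 1), mNS minus GL261 (log axis), over the 12006 genes tested, with the 10 members as lines. All but Tead2 lie below 0, and Vgll3, Ctgf and Cyr61 lie in the sparse lower tail.

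A wider list of YAP/TAZ targets, 22 genes after a published signature from human tumours, showed how far the fall of the member targets was shared. Of the 22 genes 16 were listed and tested, and 11 fell, 3 rose and 2 were not called (87.5% called, against 64.3% of all genes), with a median difference of -2.04. Amotl2, Lats2, Ctgf and Cyr61 are in this list. Without them, of 12 genes tested 7 fell and 3 rose, with a median of -0.96. The growth factor gene Tgfb2 fell from 36.0 ± 5.22 to 0.124 ± 0.158 CPM, a difference of -5.04 that rests on 5 mNS reads; its ratio of means was 290 and moved to 1017 without mNS replicate 1. Myof, which encodes a membrane repair protein, fell 6.88-fold, Dock5, an activator of Rac, from 239 ± 33.0 to 42.7 ± 5.78 CPM, and the receptor kinase gene Axl 5.35-fold from 1084 ± 67.9 CPM. Ptpn14, Rbms3 and the tissue factor gene F3 also fell, by 2.56-fold, 4.35-fold and 1.49-fold, that of Rbms3 being 6.58 without mNS replicate 3. Nt5e, which encodes a surface enzyme that makes adenosine, rose from 0.837 ± 0.191 to 7.79 ± 1.02 CPM (difference 2.26, limma adjusted p = 3.81e-06), with 34 reads in GL261. The other risers were Arhgef17 (2.02), and the stress gene Gadd45a (0.53), and Asap1 and Nuak2 were not called; Ptpn14, Rbms3, F3 and these 4 were named after their values were seen. Ankrd1, another classical target, was not listed. Of 8 fibroblast and pericyte markers the 4 listed summed to 285 to 447 CPM in GL261 and 94.0 to 230 CPM in mNS, with Col1a1 at 127 ± 9.75 and 6.18 ± 2.03 CPM and Acta2 at 24.5 ± 1.41 and 0.266 ± 0.212 CPM. Pdgfrb also fell, from 2.41 ± 0.748 to 0.123 ± 0.0401 CPM, whereas Col3a1, the most abundant of the 4 in CPM, overlapped between the groups at 230 ± 93.2 and 146 ± 70.6 CPM and was not called (difference -0.66, limma adjusted p = 0.169). None was at 0 in all libraries of a group, Dcn, Lum, Thy1 and Col1a2 were not listed, and their part in the result was not tested.

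The core kinase genes split around LATS. Of 7 genes 4 fell and 2 rose (85.7% called, against 64.3% of all genes), with a median of -0.26. Without the members Lats1 and Lats2, of 5 genes 2 fell and 2 rose (80.0% called), with a median of 0.016. The scaffold gene Sav1 fell from 149 ± 4.59 to 50.2 ± 1.29 CPM (difference -1.56 ± 0.06, limma adjusted p = 1.54e-07), although it shares 1336 exonic bases with the listed gene Atl1 on the opposite strand. The upstream kinase gene Stk3 rose from 64.6 ± 4.07 to 118 ± 8.22 CPM (0.86, adjusted p = 2.08e-05), while its relative Stk4 was not called, at 142 ± 0.788 and 144 ± 4.08 CPM (0.02 ± 0.06, adjusted p = 0.808). The LATS partner genes moved by less and in opposite directions, Mob1a by -0.26 and Mob1b by 0.58, both called.

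**Figure D4:**
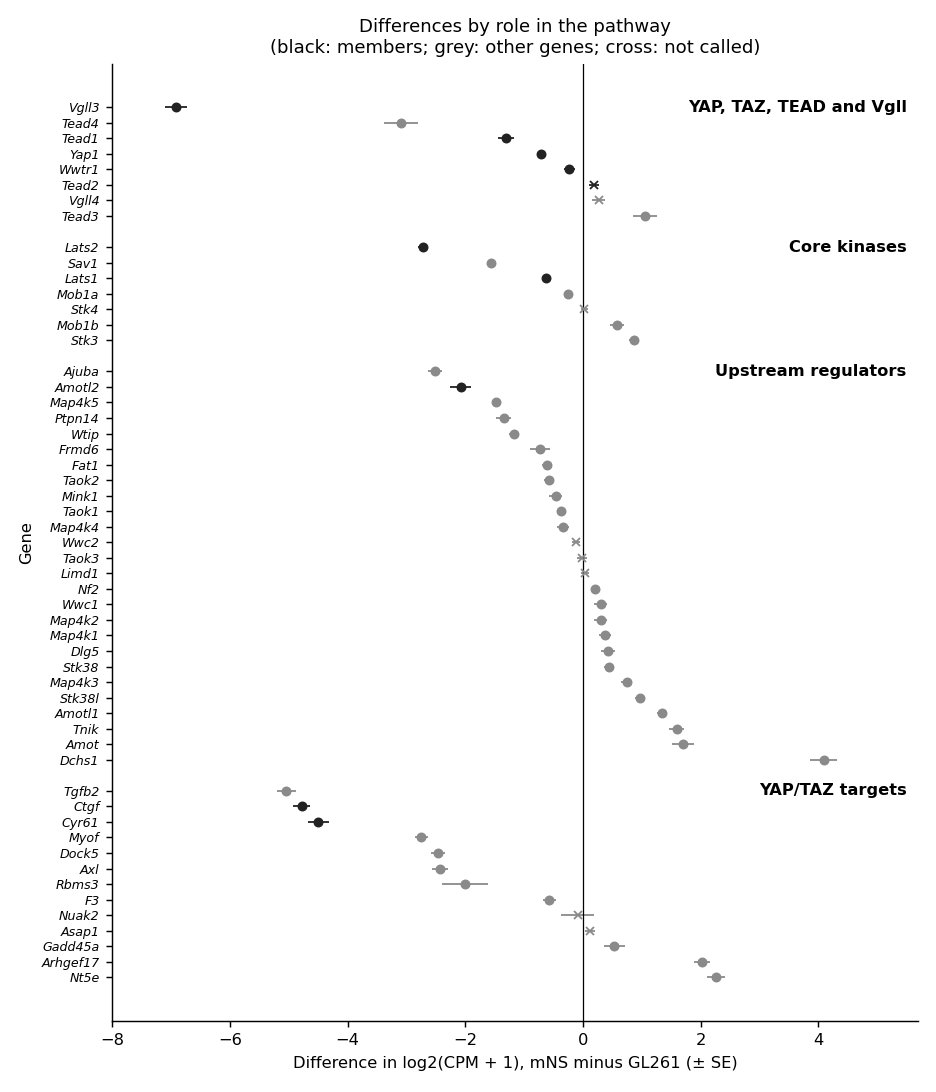
Difference in log2(CPM + 1), mNS minus GL261, with its SE, for the listed genes of 4 roles in the pathway; each gene is drawn once, under its topmost role. Members are black, other genes grey, and a cross is a gene that was not called. Targets lie mostly below 0, and upstream regulators lie on both sides. Among the coactivator, TEAD and Vgll genes the members lie mostly below 0. Of the others in that role, Tead4 lies below 0 and Tead3 and Vgll4 above it.

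Upstream regulators moved in both directions. Of 26 genes tested 12 rose and 11 fell (88.5% called, against 64.3% of all genes), with a median of 0.006; Wwc2, Taok3 and Limd1 were not called. Dchs1, the protocadherin ligand of the Fat receptors, rose from 4.94 ± 1.72 to 98.7 ± 21.1 CPM (difference 4.09 ± 0.23, limma adjusted p = 1.30e-06), and Tnik, a kinase of the MAP4K group, rose 3.05-fold. Ajuba, a LIM protein that binds and inhibits LATS, fell from 183 ± 16.3 to 31.5 ± 5.31 CPM (-2.51, adjusted p = 5.58e-07). The tumour suppressor gene Nf2, which brings LATS to the membrane, was at 140 ± 3.46 and 162 ± 15.1 CPM (0.21, adjusted p = 0.0399), a call lost when GL261 replicate 2 or 3 or mNS replicate 2 or 3 was left out (adjusted p between 0.0907 and 0.14), with libraries centred on their median gene (0.0612) and with eBayes without a trend (0.0756).

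The lists furthest from TEAD held small changes and a share of called genes near that of all genes tested. In the STRIPAK complex, whose phosphatase acts against Stk3 and Stk4, 3 of 10 genes rose and 3 fell (60.0% called, near the 64.3% of all genes), with Strn at 0.87, Ppp2r1a at 0.32, Mob4 at -0.57 and Strn3 at -0.57. Of 10 genes for cytoplasmic retention and degradation 4 rose and 2 fell (also 60.0% called), among them Csnk1e (0.69), a kinase of the YAP degron, and the 14-3-3 genes Ywhaq (0.69), Ywhaz (0.33) and Ywhae (-0.44). Neither list had a called difference of 1 or more.

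The members also differed in how they varied with passage, which is given without a test because each passage is 1 library and the first library of each group stood apart from the others. Within mNS, Amotl2, Cyr61 and Ctgf were lowest at passage 85, at 53.6%, 55.9% and 23.4% of their passage 72 values, the last on 1 read against 4. Lats1 and Lats2 also fell in order of passage, to 81.7% and 85.0%, whereas Yap1 at passage 85 was at 105% of its passage 72 value, Tead2 at 117% and Wwtr1 at 119%. Within GL261, Vgll3, Tead1, Ctgf and Cyr61 were lower at passage 34 than at passage 17, at 63.9%, 74.1%, 74.7% and 80.6%, while Yap1, Lats1 and Amotl2 stayed between 97.7% and 102%.

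The genes whose levels followed the coactivators most closely were found by Pearson's r of log2(CPM + 1) over the 6 libraries, as a description. For Yap1 they were Crip1 (r = 0.9998), L1cam (0.9997) and Il16 (0.9997), and 17.5% of the 9130 genes compared had an r over 0.95, so that the groups alone place many genes close to it. Pearson's r does not reflect the size of a change. Crip1 averaged 59.4 CPM in GL261 and 0.47 CPM in mNS, L1cam 308 and 8.29, and Il16 89.5 and 1.29, whereas Yap1 fell only 1.65-fold. For Wwtr1 they were Junb (0.9961), Rpl7a (0.9919) and Arl6ip4 (0.9919), and 0.624% had an r over 0.95. The 6 libraries share their group structure, so these values carry no test.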

How the data were processed

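The data are 6 RNA-seq libraries, made from stranded, ribosome-depleted RNA per the labels' protocols and the series text. The authors deposited 1 table of normalised signal, in CPM with TMM scaling by edgeR, per the series text. Tools credited in the submitters' processing notes are edgeR 3.4.2, HTSeq 0.5.3p9 and TopHat2 (2), with build mm10; no roles are stated. Dividing each deposited value by the worth of 1 read gave whole reads for 100% of values (tolerance 0.001 reads). Differences were tested two-sided on log2(CPM + 1), which understates changes of low genes, using limma 3.58.1 in R 4.3.3 (lmFit, then eBayes with a trend). Benjamini-Hochberg adjustment covered 12006 genes averaging 1 CPM or more, and 145 fell short. Folds are ratios of group means of CPM. Alternatives were edgeR 4.0.16 (quasi-likelihood) and DESeq2 1.42.0 on the recovered reads, other pseudocounts (0.5 and 0.1 CPM), filters, scalings and weights, and each library left out. The methods were tested on simulated data. In these, far fewer genes changed than were called here, and no result rests on the outcome. Positions and exon lengths came from GENCODE M21 on GRCm38, which matched all 100 list symbols found in the table, of 134. Ratios were computed in Python 3.11.15, with permutation tests from scipy 1.17.1.

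The members and lists were chosen with earlier results of these data known. The rule for named genes took the 10 members, all listed core kinase, TEAD, Vgll and CCN genes, up to 4 called genes with the largest difference from each other list (plus 1 in the opposite direction where needed), and Nf2 and Ankrd1. Protein motifs and identities, planned at the outset, were not analysed here. The results of 1 further list are not reported here.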

Additional observations from a re-analysis of the deposited data

How the results depend on the processing

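Over 17 alternatives, 8 of the 10 members kept their direction and their call; the exceptions were Wwtr1 and Tead2, whose values stand beside them in the report. Of 41 named genes 36 did so wherever they were tested (Tead3 and Nt5e lie below a mean of 5 CPM and have no value there); Stk4, Vgll4 and Nf2 were the others. The number of members called lower was 8 or 9 without any library. The number called higher, 0 in the main test, was 1 (Tead2) with a common column sum, with quantile normalisation and with array weights, whose estimation stopped before its tolerance, and 0 to 1 when libraries were left out. In the list of coactivators, TEAD and Vgll genes, the number called higher was 1, and 0 with a minimum mean of 5 CPM (without Tead3), 3 with a common sum, 2 with quantile normalisation, 3 with array weights, 2 in DESeq2 and 1 to 2 without a library. The number of retention and degradation genes called lower was 2, 4 with array weights, and 2 to 4 without a library. Stk4, never called, (0.02) changed sign to -0.01 with libraries centred on their median gene, with array weights and without mNS replicate 3, and lay between -0.01 and 0.03 over the left-out libraries. A common sum moved the median difference of all genes from -0.0027 to 0.081; the cause of the other shifts was not tested. No paired analysis was possible because the labels give no replicate numbers. Depth limits the folds of Ctgf, Tgfb2, Vgll3 and Tead4, with 8, 5, 32 and 43 reads in mNS, and that of Nt5e, with 34 reads in GL261.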
